A study of Mus musculus with 20 samples.

Results

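Pericytes are the mural cells of capillaries. They lie within the basement membrane that they share with the endothelium, receive PDGF-B from endothelial cells through the receptor PDGFRB, and are known to regulate capillary tone, vessel stability and permeability. In brown adipose tissue, a densely vascularised organ that produces heat under sympathetic control, they are in contact with the endothelium that supplies fuel and oxygen to the adipocytes. The potassium channel subunits Kcnj8 and Abcc9, which together form the vascular ATP-sensitive channel, the signalling regulator Rgs5, the hypoxia-associated membrane protein Higd1b and the respiratory chain subunit Cox4i2 are common markers of these cells.

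Pericytes were taken from single-cell libraries of the stromal vascular cells released from the interscapular brown fat (iBAT) of mice, in the lineage-negative (Lin-) flow-through that remained after most immune cells had been held back on a magnetic column. A cell was called a pericyte if it carried at least 3 counts summed over Kcnj8, Higd1b, Abcc9, Rgs5 and Cox4i2, at least 1 count summed over Kcnj8, Higd1b and Abcc9, fewer than 2 over the smooth muscle genes Myh11 and Lmod1, and fewer than 1 over Pecam1, Cdh5, Pdgfra and Ptprc. The cells also had under 10% mitochondrial counts, fewer than 15000 counts and at least 500 detected genes. This gave 1782 pericytes among 60538 Lin- cells past the same quality limits, or 2.94%, with 156759 barcodes deposited over all 20 libraries. At the edge of the rule, 84 pericytes had a marker sum of 3 to under 4, and 144 cells had a sum of 2 to under 3 and passed the other parts. For comparison, 1744 vascular smooth muscle cells (VSMCs), 4946 endothelial cells and 7402 adipose stromal cells (ASCs) were chosen in the same libraries by gates on Myh11 and Lmod1, on Pecam1 and Cdh5, and on Pdgfra.

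Each library pooled the iBAT of 3 to 4 mice aged 8 to 14 weeks, so the pool is the unit of replication. Male C57BL/6J mice (C57) were kept at room temperature (RT), housed for 4 days at 6 °C (COLD), or given the ADRB3 agonist CL316,243 for 4 days at room temperature from a pump that delivered 0.75 nmol per hour (CL), with 2 Lin- libraries per group from 2 replicate experiments. Female mice of a second line carried floxed Adrb1 alleles (Adrb1 fl/fl) and either lacked the tamoxifen-inducible Cre (Pdgfra-CreER -/-, WT) or carried 1 copy of it (Pdgfra-CreER +/-, KO), an allele that the study's methods name Pdgfra-CreERT2; all of them were given tamoxifen, and each genotype had 1 RT and 1 COLD library. The Cre is driven by Pdgfra, which the pericyte rule excludes, so these libraries are no test of Adrb1 loss within pericytes. In that line the RT libraries were made with version 3 of the 10X kit and the COLD libraries with version 2, on different days, so that kit, day and cold cannot be told apart there. The number of pericytes per library was 291 and 367 in C57 RT, 213 and 233 in C57 COLD, 177 and 130 in C57 CL, 95 in WT RT, 112 in WT COLD, 79 in KO RT and 85 in KO COLD. Their counts summed to between 235333 and 744601 per library, and the median pericyte held between 935 and 2934 counts.

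The cells that passed the rule were not uniform. In 215 of the 1782 pericytes the 5 markers made up fewer than 5 of every 1000 counts, and these marker-poor cells were deeper (median 4188 counts, against 1376 in the other 1567, called marker-rich here). Marker-poor cells made up 3.44% and 0.272% of pericytes in C57 RT, 5.63% and 4.72% in C57 COLD and 11.3% and 13.1% in C57 CL. They made up 65.3% in WT RT, 25% in WT COLD, 36.7% in KO RT and 29.4% in KO COLD, all above every C57 library. In WT RT they held 80.1% of all pericyte counts.

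The label held for the marker-rich cells and not for the marker-poor ones. The levels that follow pool the cells of all Lin- libraries. In marker-poor cells decorin (Dcn), a proteoglycan of fibroblasts and ASCs, stood at 14131 CPM (counts scaled to the total of the summed cells), close to the 12612 CPM of ASCs and far above the 462 CPM of marker-rich pericytes. Col1a1, a chain of type I collagen, showed the same order, with 7317 CPM in marker-poor cells, 3904 CPM in ASCs and 189 CPM in marker-rich pericytes. Pdgfrb, the PDGF-B receptor, was at 255 CPM in marker-poor cells, 1419 CPM in marker-rich pericytes and 152 CPM in ASCs. Notch3, a receptor of mural cells that the rule did not use, was at 90.5 CPM, 716 CPM and 33.9 CPM in the same order. The pooled picture need not hold in each library. In the first C57 CL library a summed list of adipocyte genes was at 15197 CPM over all pericytes and 9797 CPM among marker-rich ones. A summed list of ASC genes was at 1145 and 553 CPM there. Results are therefore given for all pericytes, as the rule defines them, and for the 1567 marker-rich cells, a division chosen after these values had been seen.

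**Figure D1:**
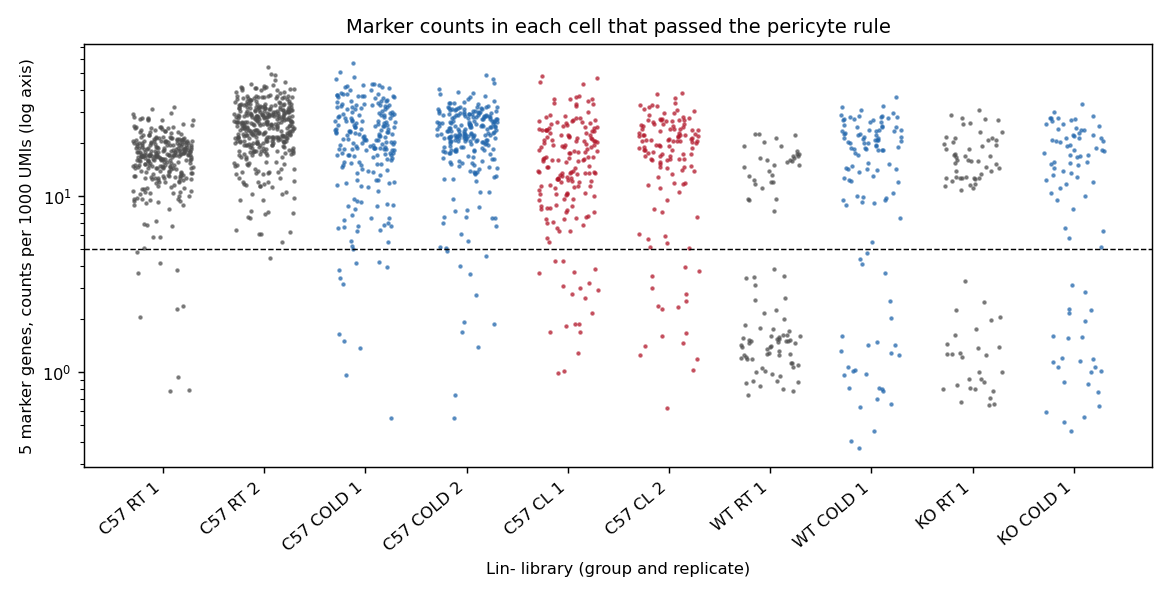
Counts of the 5 rule markers per 1000 counts of each cell, for the pericytes of each of the 10 Lin- libraries, with the dividing line at 5 per 1000 between marker-poor and marker-rich cells. WT RT has the highest share of cells below the line (65.3%) and C57 RT replicate 2 the lowest (0.272%).

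The 5 rule genes had their highest level in pericytes, as the rule dictates. Across the 10 libraries the mean level of Kcnj8 in marker-rich pericytes was 3678 CPM (lowest 2355, highest 5143), against 36.6 CPM in VSMCs, 7.02 CPM in endothelial cells and 6.82 CPM in ASCs. Rgs5 averaged 10939 CPM in marker-rich pericytes and 1627 CPM in VSMCs. Among genes that the rule did not use, Pdgfrb averaged 1492 CPM (782 to 2338) in marker-rich pericytes, 328 CPM in VSMCs and 11.3 CPM in endothelial cells. Vitronectin (Vtn), a matrix and plasma protein, was at 920 CPM against 178 CPM in VSMCs, and the mono-ADP-ribosyltransferase family member Art3 at 2701 CPM against 99.8 CPM. Ndufa4l2, a hypoxia-induced mitochondrial protein, was at 2950 CPM against 870 CPM.

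Several mural cell genes were shared by both kinds of mural cell or were higher in VSMCs. Notch3 averaged 733 CPM in marker-rich pericytes and 875 CPM in VSMCs. The proteoglycan NG2 gene Cspg4 averaged 286 CPM and 225 CPM, and the adhesion molecule Mcam 387 CPM and 477 CPM. Contractile genes were far lower in pericytes: smooth muscle actin Acta2 was at 704 CPM (34.4 to 2767) against 18203 CPM in VSMCs, transgelin (Tagln) at 802 CPM against 11489 CPM, and calponin (Cnn1) at 5.81 CPM against 648 CPM. The endothelial junction gene Cldn5 was at 36.4 CPM, against 1793 CPM in endothelial cells. These are descriptions, since the classes were chosen by expression.

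**Figure D2:**
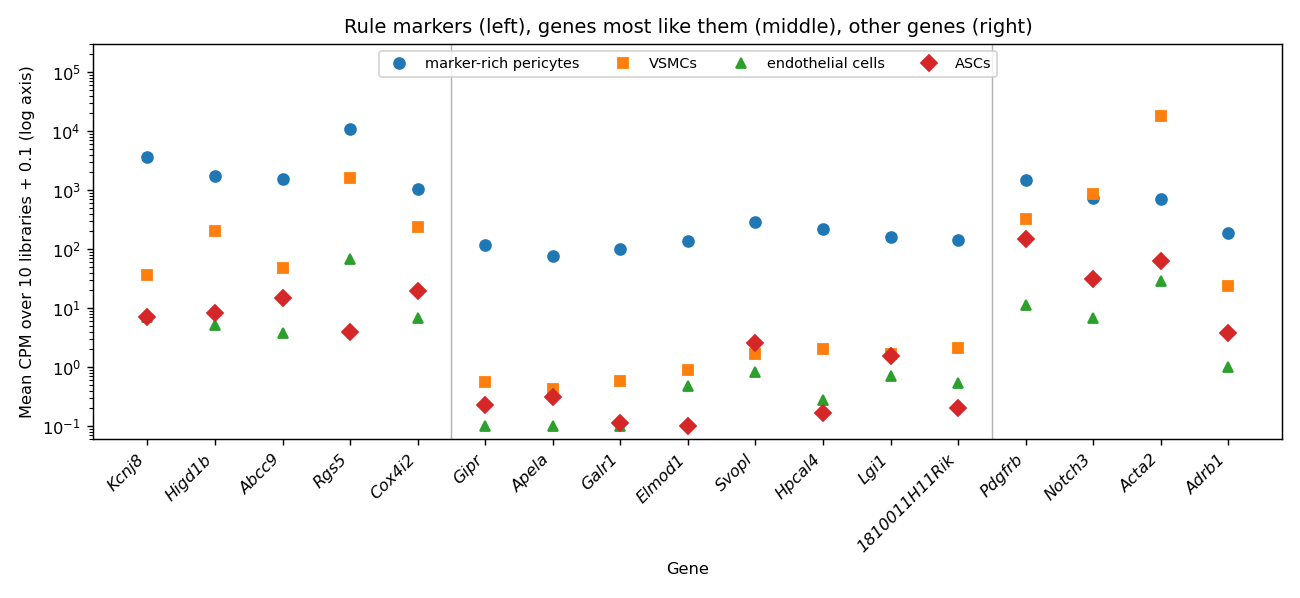
Mean CPM over the 10 Lin- libraries (log axis, 0.1 added so that 0 can be drawn) in marker-rich pericytes, VSMCs, endothelial cells and ASCs, for the 5 rule markers on the left, genes most like them in the middle and 4 other genes on the right. Pdgfrb is highest in pericytes (1492 CPM), Notch3 is at like levels in pericytes and VSMCs, and Acta2 is highest in VSMCs (18203 CPM).

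The genes most like the 5 markers were sought as those with the largest ratio of mean CPM in pericytes to the highest of the other 3 classes, over 10 libraries. The first 10 held the incretin receptor gene Gipr, Apela, which encodes a ligand of the apelin receptor, the galanin receptor gene Galr1 and Elmod1. These 4 genes had 319, 234, 240 and 350 counts in pericytes and 3, 1, 3 and 5 in VSMCs, the next highest class, so that the size of their ratios was poorly determined. With the libraries pooled, the ratio to VSMCs was 142 for Gipr (95% exact interval 48.2 to 693), 313 for Apela (55.6 to 12404), 107 for Galr1 (36.1 to 522) and 93.5 for Elmod1 (39.7 to 289.9), counting error only. Hpcal4 (64.0, 35.5 to 129), Lgi1 (71.3, 35.9 to 166) and 1810011H11Rik (50.2, 27.0 to 106) ranked there as well, and these intervals overlapped, so that no order among the 7 genes could be read. Svopl stood at 78.3 times its level in ASCs. Igha (108) and Jchain (83.7), both genes of antibody-secreting plasma cells, ranked there too, but their ratios were 1.57 and 1.35 in marker-rich pericytes, and their counts came from the marker-poor cells of WT COLD.

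Adrenergic receptors bear on the treatments, since cold acts through noradrenaline and CL316,243 through ADRB3. Adrb1 averaged 184 CPM (55.8 to 361) in marker-rich pericytes, against 23.8 CPM in VSMCs, 0.92 CPM in endothelial cells and 3.64 CPM in ASCs. Over all pericytes it was at 111 and 297 CPM in C57 RT, 75.6 and 149 CPM in C57 COLD and 43.6 and 157 CPM in C57 CL, and the groups overlapped. The ADRB3 gene itself did not exceed 7.27 CPM in any library, and Adra1a did not exceed 3.63 CPM. Adra2a was at 102 and 39.2 CPM in C57 CL and at no more than 3.68 CPM in any other library. Trpv1, which encodes a heat- and capsaicin-gated channel, averaged 0.90 CPM in marker-rich pericytes and 41.9 CPM in VSMCs.

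The share of pericytes among Lin- cells was lower after both treatments in C57 mice, without overlap between groups. Pericytes made up 5.44% (95% exact binomial interval 4.85 to 6.09) and 6.54% (5.91 to 7.22) in RT, 2.29% (1.99 to 2.61) and 3.48% (3.05 to 3.94) in COLD, and 1.80% (1.55 to 2.08) and 2.10% (1.76 to 2.49) in CL. The group values were 5.99% ± 0.778 (SD, n = 2) in RT, 2.88% ± 0.839 (SD, n = 2) in COLD and 1.95% ± 0.215 (SD, n = 2) in CL. The exact permutation p (two-sided) was 0.333 for each treatment, the smallest that 2 against 2 libraries allow. When cells needed a total of at least 1000 counts, the RT and COLD libraries overlapped and the cold difference was -1.80 percentage points instead of -3.11. The intervals cover counting error only.

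In the Adrb1 line the share was 2.01% (1.63 to 2.46) in WT RT and 1.72% (1.42 to 2.07) in WT COLD, and 3.35% (2.66 to 4.16) in KO RT and 2.13% (1.71 to 2.63) in KO COLD. Among marker-rich cells the WT share ran the other way, from 0.700% at RT to 1.29% in COLD, while the KO share went from 2.12% to 1.5%. Over both lines the share was 2.40% ± 0.753 (SD, n = 4) in COLD and 4.34% ± 2.04 (SD, n = 4) in RT, a difference of -1.93 percentage points (two-sided exact permutation p = 0.2; 0.667 adjusted over 6 tests of shares and ratios). Over all pericytes the share was lower in COLD in 4 of 4 pairs of the same experiment or genotype, for which the exact permutation p with the pairs as a block was 0.125, the smallest that 4 pairs allow. For marker-rich cells the difference was -1.58 points (exact permutation p = 0.343).

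A share depends on what else is in the fraction. Set against endothelial cells, pericytes numbered 36.9 and 76.9 per 100 endothelial cells in C57 RT, 33.2 and 49.5 in C57 COLD, and 13.1 and 85.0 in C57 CL. The ratio was 36.8 in WT RT and 41.3 in WT COLD, and 24.8 in KO RT and 39.5 in KO COLD. All 3 C57 groups overlapped on this ratio. Over both lines it was 40.9 ± 6.71 (SD, n = 4) in COLD and 43.9 ± 22.8 (SD, n = 4) in RT, and the difference of -2.99 (exact permutation p = 0.914) was far smaller than the spread. The endothelial share itself varied between 2.48% and 14.7% of Lin- cells. Set against VSMCs, pericytes numbered 212 and 164 per 100 in C57 RT and 69.6 and 101 in C57 COLD, without overlap. They numbered 172 and 65.3 per 100 VSMCs in C57 CL, 46.3 in WT RT, 59.6 in WT COLD, 114 in KO RT and 102 in KO COLD. The ratio to VSMCs was not tested. The limit on Myh11 and Lmod1 also bears on these counts. By it alone 9 and 22 cells were left out in C57 RT, 39 and 53 in C57 COLD and 10 and 21 in C57 CL. It left out 14 in WT RT, 39 in WT COLD, 10 in KO RT and 23 in KO COLD. Such cells were counted as VSMCs, and their part in the share and in these ratios was not tested. Fewer pericytes, more of other cells and unequal release on digestion cannot be told apart in these counts.

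**Figure D3:**
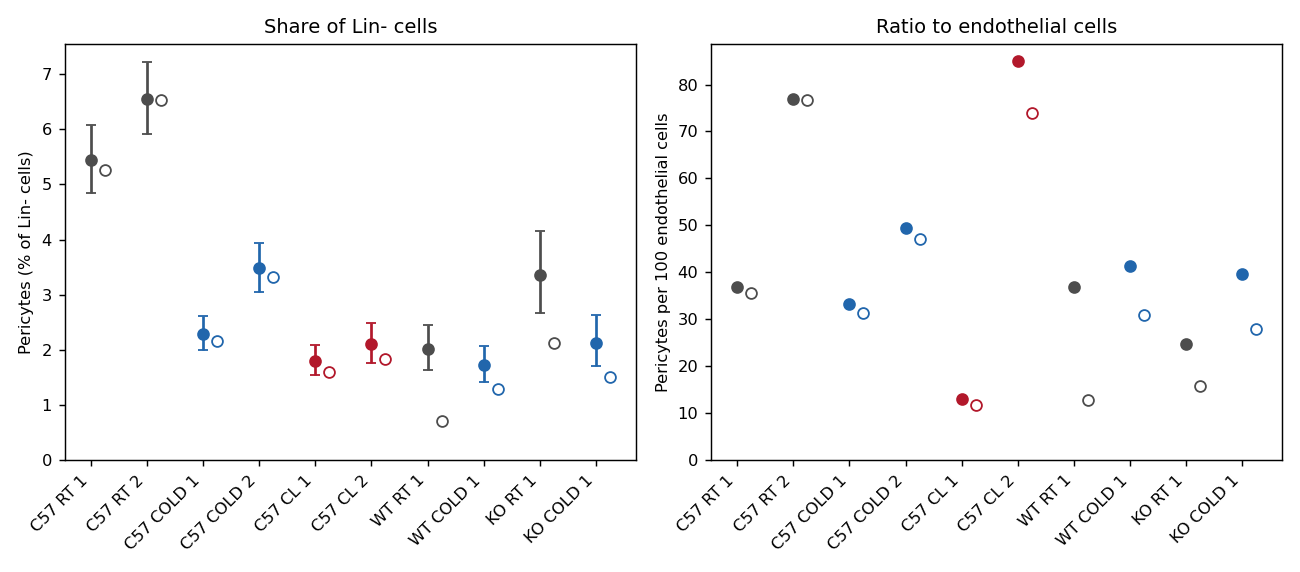
Pericytes as a percentage of Lin- cells with 95% exact binomial intervals, and pericytes per 100 endothelial cells, by library (grey RT, blue COLD, red CL); filled symbols are all pericytes and open symbols marker-rich ones. Both C57 RT libraries lie above the C57 COLD and C57 CL libraries in the share (5.44% and 6.54% at RT), whereas the groups overlap in the ratio to endothelial cells.

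Few pericytes carried a cell cycle signature outside 1 CL library. Cells were thinned to 1000 counts, and shallower cells were left out. Only 88 of 177 pericytes were thus scored in the first C57 CL library and 197 of 367 in the second C57 RT library. A scored cell with at least 3 counts over a list of cell cycle genes was called cycling. This held for 6 of 277 (2.17%) and 10 of 197 (5.08%) cells in C57 RT and for 1 of 157 (0.637%) and 5 of 212 (2.36%) in C57 COLD. In C57 CL it held for 18 of 88 (20.5%, exact binomial interval 12.6 to 30.4) and 4 of 121 (3.31%, 0.908 to 8.25), so that the replicates differed beyond counting error. It held for 0 of 95 cells in WT RT, which by a floor of 3 counts allows a share of up to 3.16%, for 1 of 91 (1.10%) in WT COLD, for 0 of 79 in KO RT, which by the same floor allows up to 3.80%, and for 1 of 77 (1.30%) in KO COLD. The exact binomial upper limits were wider, at 3.81% in WT RT and 4.56% in KO RT. Between COLD and RT over both lines the shares were 1.35% ± 0.728 (SD, n = 4) and 1.81% ± 2.40 (SD, n = 4), a difference of -0.462 percentage points (exact permutation p = 0.8). Without thinning the shares ranged from 4.21% to 18.8%, and the difference between COLD and RT turned to 4.10 points. With thinning, endothelial cells of the same libraries gave 1.30% to 9.02%. Marker-rich pericytes, thinned alike, gave 12 of 68 (17.6%) in the first C57 CL library and 2 of 104 (1.92%) in the second. Among them COLD and RT differed by -0.296 points over both lines (exact permutation p = 0.914).

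Which genes changed in pericytes upon cold was tested on counts summed per library, with edgeR's quasi-likelihood test and Benjamini-Hochberg adjustment over all genes tested. In C57 mice 29 of 6752 genes passed an adjusted p of 0.05 (0.43%), of which 18 rose (0.267%) and 11 fell (0.163%). Interferon-stimulated genes made up 9 of the 18 that rose, and those that fell included the growth factor pleiotrophin (Ptn) and the neurotrophin receptor Ngfr. Among marker-rich pericytes 35 of 6480 genes passed (0.54%), 25 up (0.386%) and 10 down (0.154%). DESeq2 called 33 genes. With the replicate experiment as a block the count was 55, all 29 among them. The count ran from 18 without the second COLD library to 155 without the first RT library, and it was 15 when cells with high totals (over 2 times the library's median pericyte) were left out.

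Interferons signal through STAT and IRF factors to switch on antiviral effectors. Of 24 tested members of an interferon response list, 9 rose and 0 fell, 23 had a log2 difference above 0, and the median was 1.76, against a median of 0.01 and 51.2% above 0 over all genes tested. By the test 0.267% of all genes rose. In marker-rich pericytes 8 of 24 rose, against 0.386% of all genes tested, with a median of 1.60. The list was chosen with earlier results of these data known.

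Ifit1, which binds viral RNA, stood at 9.39 and 13.8 CPM in C57 RT and at 115 and 132 CPM in C57 COLD, a log2 change of 3.50 (SE 0.36, adjusted p = 0.00659). In the Adrb1 line it was at 6.87 CPM in WT RT and 52.1 CPM in WT COLD, and at 21.2 CPM in KO RT and 199 CPM in KO COLD. Every COLD library thus lay above every RT library. Among marker-rich cells WT RT and WT COLD were close, at 17.2 and 18.1 CPM, whereas KO RT and KO COLD were at 0 and 91.9 CPM. The neighbouring family member Ifit3 went from 21.5 and 35.8 CPM to 145 and 164 CPM (log2 change 2.55, SE 0.30, adjusted p = 0.0104). Oasl2, of the oligoadenylate synthetase family, went from 4.03 and 8.25 CPM to 75.6 and 71.5 CPM (3.69, SE 0.45, adjusted p = 0.0104). Irf7, the transcription factor that amplifies type I interferon production, went from 18.8 and 24.8 CPM to 171 and 105 CPM (2.69, SE 0.37, adjusted p = 0.0162). In C57 these changes were of like size among marker-rich cells, where Ifit1 changed by 3.52 and Irf7 by 2.49.

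The other called members were Bst2, which encodes the virus-tethering protein tetherin, the ubiquitin-like modifier Isg15, its protease Usp18, the receptor chaperone Rtp4 and Ifi27l2a. Bst2 was at 69.8 and 44.0 CPM in RT and 490.0 and 389 CPM in COLD (log2 change 2.92, SE 0.45, adjusted p = 0.0257). Isg15 was at 91.3 and 90.8 CPM in RT and 382 and 374 CPM in COLD (2.09, SE 0.37, adjusted p = 0.0493), and its adjusted p was 0.0769 among marker-rich cells. Ifi27l2a had the widest range, from 38.1 CPM in KO RT to 1321 CPM in KO COLD, but both of these libraries held no count of it among marker-rich cells. In the model over both lines 14 of 25 tested members rose and 0 fell, with a median of 1.92, while 1.04% of all genes tested rose. Among marker-rich cells it was 9 of 21, with a median of 1.05, while 1.91% of all rose. The summed list of marker-rich cells hardly moved in WT, at 1358 CPM in RT and 1365 CPM in COLD. In KO it went from 857 to 2666 CPM. The class I antigen presentation list had 13 of 14 members above 0 with a median of 0.83, but no member passed the test in all pericytes.

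The promoters of 4 of these called genes are shown because they hold the letters to which interferon regulatory factors are known to bind. The 160 bases before each gene's start were read from RefSeq (GRCm38.p6) 5′ to 3′ on the gene's strand and searched for GAAANNGAAA on either strand; capitals mark the matches, with overlapping matches merged.
Isg15, chr4:156200819-156200978, minus strand: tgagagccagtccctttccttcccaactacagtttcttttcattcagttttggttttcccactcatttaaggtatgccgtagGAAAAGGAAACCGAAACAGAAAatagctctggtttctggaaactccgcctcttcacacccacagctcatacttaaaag
Bst2, chr8:71537473-71537632, minus strand: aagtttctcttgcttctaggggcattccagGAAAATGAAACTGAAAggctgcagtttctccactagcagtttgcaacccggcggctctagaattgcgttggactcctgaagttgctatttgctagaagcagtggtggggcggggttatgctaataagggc
Ifit3, chr19:34583369-34583528, plus strand: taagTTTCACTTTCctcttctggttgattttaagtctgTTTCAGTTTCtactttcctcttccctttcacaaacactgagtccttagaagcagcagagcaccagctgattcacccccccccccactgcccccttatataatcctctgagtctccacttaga
Ifit1, chr19:34640729-34640888, plus strand: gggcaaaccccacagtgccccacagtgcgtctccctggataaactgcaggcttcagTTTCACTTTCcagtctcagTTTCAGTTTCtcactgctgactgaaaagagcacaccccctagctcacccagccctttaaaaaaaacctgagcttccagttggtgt
The match lay between 78 and 57 bases before the start in Isg15 and between 130 and 115 in Bst2. Ifit3 and Ifit1 each held a pair of separate matches, between 156 and 113 and between 104 and 76 bases before the start. Of the 9 called members, 6 were matched to a promoter and 4 of these held the letters; Oasl2 and Irf7 held none. Over the whole list 11 of 27 promoters held them (40.7%), against 7 of 21 (33.3%) of the promoters of members that were not called, 98 of 6905 (1.42%) of all tested genes and 565 of 32851 (1.72%) of all promoters. A match describes these letters and does not show that a factor binds.

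The interferon genes were not particular to pericytes in C57 cold. Ifit1 was at 3.35 and 16 CPM in VSMCs at RT and 210 and 159 CPM in COLD, at 96.6 and 132 CPM and then 315 and 327 CPM in endothelial cells, and at 25.8 and 62.1 CPM and then 257 and 424 CPM in ASCs. A test of the difference in response found no interferon gene that differed from VSMCs, and 5 of 29 that rose more in pericytes than in endothelial cells (Oasl2, Ifi27l2a, Rtp4, Iigp1 and Ifit1). Over all genes tested 0.0232% differed from VSMCs, and 0.383% had a higher response in pericytes than in endothelial cells.

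Plac8, Cxcl9, Ccl2 and Ly6a also rose in C57 cold. All of them were higher in ASCs, with means over the 10 libraries of 388, 395, 712 and 2321 CPM, against 37.1, 21.9, 78.5 and 175 CPM in marker-rich pericytes. The summed ASC marker list moved with them in marker-rich cells, at 552 and 644 CPM in C57 RT and 1948 and 1818 CPM in C57 COLD, and its part in their rise was not tested. Plac8, a small cysteine-rich protein, was at 5.37 and 2.75 CPM in RT and 135 and 128 CPM in COLD (log2 change 4.79, SE 0.40, adjusted p = 0.00183). The interferon-induced chemokine Cxcl9 was at 6.71 and 2.75 CPM in RT and 155 and 69.4 CPM in COLD (4.26, SE 0.57, adjusted p = 0.0138). Among marker-rich pericytes Cxcl9 was at 103 and 13.9 CPM in COLD and was too low to be tested, so that much of its signal in the second COLD library came from marker-poor cells. The monocyte chemoattractant Ccl2 was at 18.8 and 52.3 CPM in RT and 181 and 199.8 CPM in COLD (2.64, SE 0.35, adjusted p = 0.0138), with an adjusted p of 0.051 among marker-rich cells. Ly6a, which encodes the surface antigen SCA-1, was at 87.2 and 105 CPM in RT and 599 and 709 CPM in COLD (2.83, SE 0.48, adjusted p = 0.0385).

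Npr3, Plat, Lims2, 1810011H11Rik and Prnp rose as well. Npr3, the clearance receptor of natriuretic peptides, rose from 17.4 and 63.3 CPM to 174 and 204 CPM (log2 change 2.49, SE 0.38, adjusted p = 0.0257), and was at 3.63 and 3.27 CPM in C57 CL. Plat, the tissue plasminogen activator, rose from 49.7 and 57.8 CPM to 194 and 236 CPM (2.06, SE 0.30, adjusted p = 0.0208). The focal adhesion gene Lims2 rose from 41.6 and 77.0 CPM to 220.4 and 248 CPM (2.12, SE 0.36, adjusted p = 0.0411). The pericyte-enriched transcript 1810011H11Rik rose from 33.5 and 49.5 CPM to 224 and 183 CPM (2.37, SE 0.27, adjusted p = 0.0104). Together with Ifit1 and Ifit3 it was called in every alternative of this comparison that tested it. Prnp, the prion protein gene, rose from 33.5 and 27.5 CPM to 168 and 101 CPM (2.08, SE 0.34, adjusted p = 0.0352), but its adjusted p was 0.228 in marker-rich cells. In the Adrb1 line Prnp ran the other way over all pericytes, from 264 to 197 CPM in WT and from 259 to 151 CPM in KO.

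**Figure D4:**
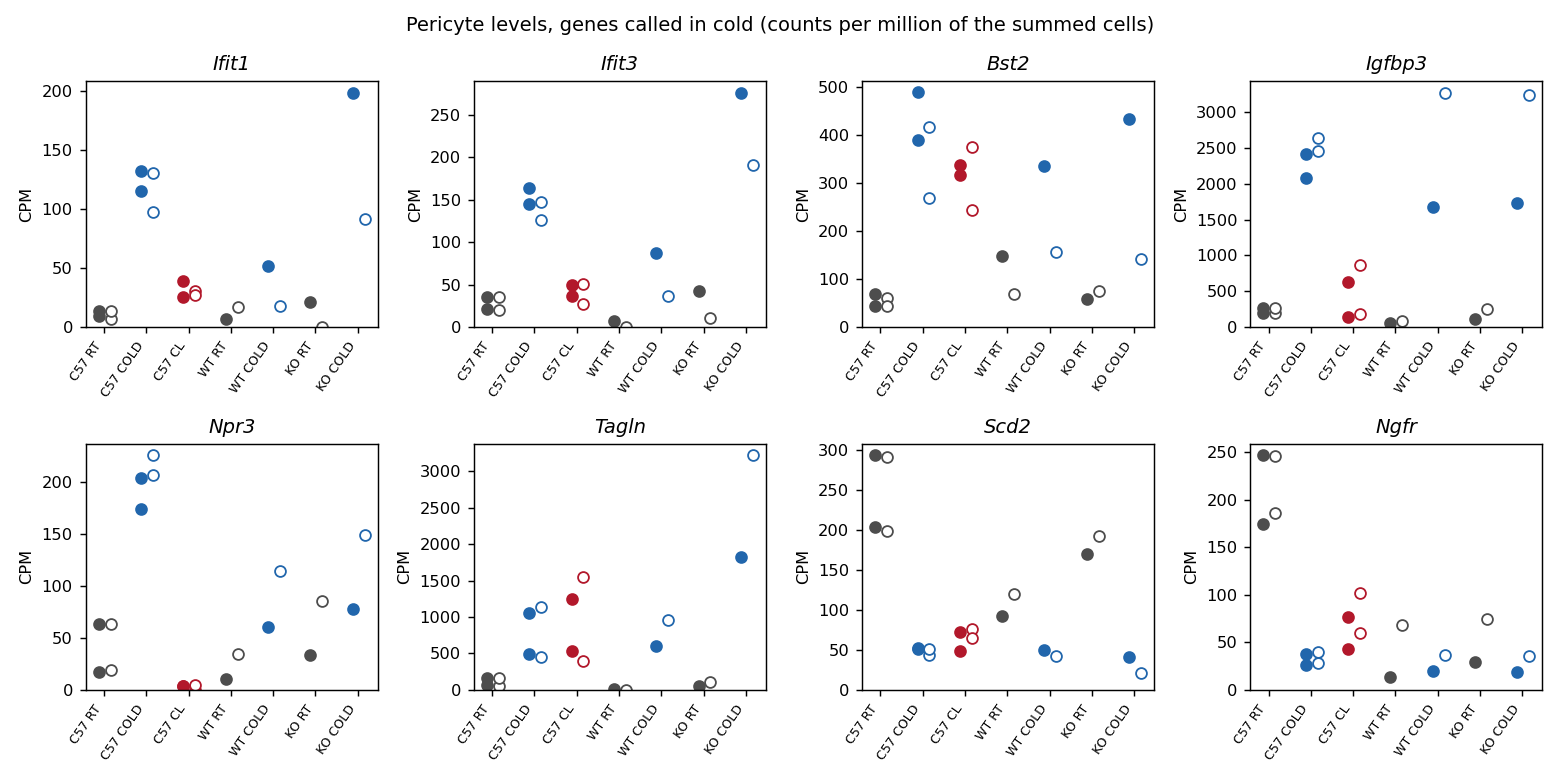
CPM of genes named for cold, each on its own linear axis, in each C57 RT, C57 COLD and C57 CL library and in the Adrb1 line (grey RT, blue COLD, red CL); filled symbols are all pericytes and open symbols marker-rich ones. Ifit1 lies at 9.39 and 13.8 CPM at RT and at 115 and 132 CPM in COLD, and Scd2 moves the other way, from 294 and 204 CPM to 52.6 and 50.5 CPM.

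Of 16 tested genes of a sterol metabolism list, 1 fell by the test in C57 cold and 2 fell in CL. Cholesterol synthesis is controlled by the sterol-sensing factor SREBP2, which switches its enzymes on when sterols are low. In cold 0 of the 16 had a log2 difference above 0 and the median was -2.08, against 0.01 over all genes, of which 0.163% fell by the test. In CL, where Cyp51 was among those that fell, 1 was above 0 and the median was -1.87, and 0.193% of all genes fell. Cyp51, a sterol demethylase, was at 139.6 and 71.5 CPM in RT, 23 and 27.3 CPM in COLD and 7.27 and 6.53 CPM in CL. In CL its log2 change was -3.85 (SE 0.66, adjusted p = 0.0327), with an adjusted p of 0.052 among marker-rich cells. In the model over both lines 2 of 10 fell, against 0.682% of all genes, and 0 were above 0, with a median of -1.11. Among marker-rich cells 4 of 11 fell, against 1.16% of all, with a median of -1.54. The summed list was at 2253 and 1361 CPM in C57 RT and at 487 and 473 CPM in C57 COLD. In ASCs of the same libraries it was at 1592 and 1190 CPM in RT, 411 and 351 CPM in COLD and 482 and 349 CPM in CL. In the Adrb1 line it was not lower in cold over all pericytes, at 412 CPM in WT RT, 475 CPM in WT COLD, 411 CPM in KO RT and 526 CPM in KO COLD. Among marker-rich cells it went from 1375 to 519 CPM in WT and from 599.6 to 608 CPM in KO.

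Ptn fell in C57 cold, from 173 and 189.8 CPM to 23 and 29.4 CPM (log2 change -2.69, SE 0.33, adjusted p = 0.0104). In the Adrb1 line it ran the other way over all pericytes, from 44.6 CPM to 353 CPM in WT and from 237 CPM to 725 CPM in KO. Among marker-rich cells it went from 189 CPM to 6.04 CPM in WT and from 75.0 CPM to 0 in KO, and over both lines it then fell by 3.50 on the log2 scale (adjusted p = 0.000289). Cthrc1, a secreted protein of matrix-producing cells, ran the other way in WT but not in KO over all pericytes, at 30.9 and 289.5 CPM in WT and 42.4 and 29.4 CPM in KO (RT, then COLD). It fell in C57 from 188 and 231 CPM to 65.8 and 44.2 CPM (-1.89, SE 0.31, adjusted p = 0.0328), and over both lines its adjusted p was 0.935 for all pericytes and 0.00142 for marker-rich ones. Both genes thus passed over both lines only without the marker-poor cells.

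Ngfr, Adcyap1r1, Ntng1 and Scd2 fell too. Ngfr, the p75 neurotrophin receptor, went from 174 and 248 CPM to 26.3 and 37.9 CPM (log2 change -2.57, SE 0.32, adjusted p = 0.0107). Adcyap1r1, the receptor of the neuropeptide PACAP, went from 169 and 275 CPM to 59.2 and 56.8 CPM (-1.83, SE 0.26, adjusted p = 0.0175), and Ntng1, a netrin-related guidance protein, from 92.6 and 151 CPM to 19.7 and 4.21 CPM (-3.39, SE 0.59, adjusted p = 0.0464). The stearoyl-CoA desaturase Scd2 went from 294 and 204 CPM to 52.6 and 50.5 CPM (-2.27, SE 0.37, adjusted p = 0.0328). Galnt16, Sept6, Tmem182 and B430010I23Rik fell by between 1.57 and 2.57 on the log2 scale.

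The defining pericyte genes outside the rule did not pass the test in C57 mice. Pdgfrb was at 1188 and 2173 CPM in C57 RT, 806 and 1420 CPM in COLD and 661 and 999.6 CPM in CL, with log2 differences of -0.48 in cold (adjusted p = 0.951, edgeR) and -0.81 in CL (adjusted p = 0.657, edgeR). Notch3 was at 599.9 and 886 CPM in RT and 579 and 689.8 CPM in COLD. Of 26 pericyte identity genes outside the rule none was called in C57 cold, with a median of -0.17. Over both lines 1 of 25 rose, the potassium channel subunit gene Kcne4, while 1.04% of all genes tested rose. Of 17 basement membrane genes none was called either, although 15 were above 0 with a median of 0.58. Their summed list was at 16601 and 8085 CPM in C57 RT and 17214 and 17531 CPM in C57 COLD, so that the second RT library stood apart.

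The cold response was then taken over both lines, with 4 RT and 4 COLD libraries and the line as a covariate. It gave 111 of 6449 genes (1.72%), 67 up (1.04%) and 44 down (0.682%); among marker-rich pericytes it gave 154 of 5021 genes (3.07%), 96 up (1.91%) and 58 down (1.16%). DESeq2 called 217 genes. The count was 57 without KO RT, 61 without WT COLD and 56 when cells with high totals were left out. Of the 29 genes called in C57 mice, 22 (75.9%) had the C57 sign in both the WT and the KO pair, against 38.8% of all genes tested; among marker-rich pericytes it was 31 of 35 (88.6%), against 40.3%. Since kit and day go with temperature in the Adrb1 line, the Adrb1 line values were read beside those of C57.

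Igfbp3, which binds insulin-like growth factors, rose over both lines. It was at 192 and 261 CPM in C57 RT and 2085 and 2416 CPM in C57 COLD, at 58.4 CPM in WT RT and 1673 CPM in WT COLD, and at 106 CPM in KO RT and 1729 CPM in KO COLD. Its log2 change over both lines was 3.78 (SE 0.45, adjusted p = 0.000853), and 3.82 among marker-rich cells (adjusted p = 0.000198). In C57 alone the log2 difference of 3.39 missed the threshold (SE 0.81, adjusted p = 0.155). In C57 CL the libraries stood apart at 145 and 630.5 CPM. Igfbp3 did not exceed 64.1 CPM in VSMCs, 220 CPM in endothelial cells or 296 CPM in ASCs of any library, and in C57 its cold response was larger in pericytes than in VSMCs by 3.29 (SE 0.55, adjusted p = 0.0193) and than in endothelial cells by 5.22 (adjusted p = 1.84e-06).

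Some contractile genes rose over both lines. Tagln was at 59.0 and 159.5 CPM in C57 RT, 1049 and 486 CPM in C57 COLD and 1243 and 539 CPM in C57 CL, and went from 6.87 CPM to 605 CPM in WT and from 50.9 CPM to 1828 CPM in KO. Over both lines it rose by 3.95 on the log2 scale (SE 0.65, adjusted p = 0.00566). The myosin light chain gene Myl9 was at 345 and 569 CPM in C57 RT and 1954 and 1518 CPM in C57 COLD, and rose by 2.34 over both lines (SE 0.41, adjusted p = 0.00949). Acta2 was at 92.6 and 267 CPM in C57 RT, 960.3 and 202 CPM in C57 COLD and 2413 and 1039 CPM in C57 CL; it rose by 2.58 over both lines (SE 0.56, adjusted p = 0.033), although the C57 RT and COLD libraries overlapped. The tropomyosin gene Tpm1 rose by 1.20 (adjusted p = 0.0492, edgeR). With the replicate experiment as a block the adjusted p was 0.0764 for Acta2 and 0.0888 for Tpm1. These 4 were the called members of 12 tested contractile genes, whose median was 1.05, while 1.04% of all genes tested rose. Among marker-rich cells 5 of 12 rose, against 1.91% of all. In C57 alone none of the 12 passed, with medians of 0.69 in cold and 1.12 in CL. The rule admits cells with 1 count of Myh11 or Lmod1 (195 pericytes held some), and VSMCs carried Tagln at 11489 CPM, so the part of VSMC RNA in these values was not tested.

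Endothelin receptor B (Ednrb) rose in cold over both lines, from 105 and 269.5 CPM to 747 and 1066 CPM in C57, from 44.6 CPM to 313 CPM in WT and from 195 CPM to 526 CPM in KO (log2 change 2.06, SE 0.44, adjusted p = 0.0324). With Npr3 it made 2 of 12 tested genes of a vasoactive receptor list that rose, against 1.04% of all 6449 genes; 6 of the 12 had a log2 difference above 0 and the median was -0.02. Il2rg, the common gamma chain of interleukin receptors, was at 5.37 and 5.50 CPM in C57 RT and 39.5 and 44.2 CPM in C57 COLD, and at 0 in both RT libraries of the Adrb1 line against 43.4 and 47.8 CPM in its COLD libraries (3.46, SE 0.52, adjusted p = 0.00324). The matrix protein gene Spon2 rose by 2.79 (adjusted p = 0.000853), the calcium-binding S100b by 2.55 (adjusted p = 0.0147), and the Notch receptor gene Notch4 by 1.64 (adjusted p = 0.033), all by edgeR. For Notch4 the adjusted p was 0.0741 with the replicate experiment as a block. Kcne4, a potassium channel subunit, was at 6.71 and 41.3 CPM in C57 RT and 59.2 and 69.4 CPM in COLD (2.09, adjusted p = 0.0268), with an adjusted p of 0.0571 among marker-rich cells.

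Over both lines follistatin (Fst), an inhibitor of activins, fell from 488 and 391 CPM to 214 and 111 CPM in C57, from 237 CPM to 86.9 CPM in WT and from 297 CPM to 44.1 CPM in KO (log2 change -1.77, adjusted p = 0.0138). The immediate early gene Nr4a1 was at 385 and 157 CPM in C57 RT and 164 and 79.9 CPM in C57 COLD, and went from 474 CPM to 86.9 CPM in WT and from 653 CPM to 92.0 CPM in KO (-2.0, adjusted p = 0.034). Of 23 immediate early and heat shock genes, which respond quickly to stimulation and to cell dissociation, 2 fell, against 0.682% of all genes tested. Only 2 were above 0, and the median was -0.97. In C57 both Nr4a1 and the summed list overlapped, the list at 27701 and 10128 CPM in RT and 17832 and 13928 CPM in COLD. The list fell from 30450 to 11512 CPM in WT and from 28154 to 11909 CPM in KO, where kit and day go with temperature. For Nr4a1 the adjusted p was 0.0628 among marker-rich cells. The acute phase gene Hp was called, with 78 counts in COLD and 2 in RT (a ratio of 45.7 at equal totals, exact interval 12.2 to 384, counting error only), but was too low for a test in marker-rich cells. All 8 genes of a cyclic GMP signalling list lay below 0, with a median of -0.80, and none was called in all pericytes; Prkg1, the cyclic GMP-dependent kinase, and Mrvi1, its substrate, were called among marker-rich cells, at -1.25 (adjusted p = 0.0455) and -1.14 (adjusted p = 0.0291).

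CL316,243 was compared with RT to ask how pericytes differed after infusion of this ADRB3 agonist. A direct action on pericytes cannot be told apart here from one through other cells. In C57 CL 56 of 6752 genes passed (0.829%), 43 up (0.637%) and 13 down (0.193%); among marker-rich pericytes 23 of 6480 passed (0.355%), 17 up (0.262%) and 6 down (0.0926%). DESeq2 called 77, and with the replicate experiment as a block the count was 140, all 56 among them. The genes that rose included cell cycle genes and a few brown adipocyte genes, and those that fell included Vegfc, Bdnf and Cadm1. The count was 14 without the first CL library, 348 without the first RT library, 8 without barcodes shared with the Lin+ library of the same sample and 0 when cells with high totals were left out, so that the list depends on few libraries and cells.

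Stmn1, the microtubule regulator stathmin, was at 14.8 and 19.3 CPM in RT, 39.5 and 21.0 CPM in COLD and 538 and 196 CPM in CL (log2 change 4.54, SE 0.51, adjusted p = 0.00663). It stayed high among marker-rich cells, at 528 and 170.0 CPM in CL, with an adjusted p of 0.0121. The mitotic kinase gene Cdk1 had 65 counts in CL and 2 in RT, a ratio of 62.1 (exact interval 16.5 to 523, counting error only). In CL it was at 142 and 84.9 CPM over all pericytes but at 152 and 4.59 CPM among marker-rich ones. Top2a, the DNA topoisomerase of proliferating cells, followed it, with 156 and 58.8 CPM over all and 173 and 4.59 CPM among marker-rich cells. In the second CL library the counts of both genes thus came mainly from the marker-poor cells. The mitotic cyclin Ccnb2 had 49 counts in CL and none in RT, a ratio of 31.2 with RT set at a floor of 3 counts. Its marker-rich levels in CL were 66.0 and 64.3 CPM. The centromere protein Cenpf had 52 counts in CL and also none in RT, a ratio of 33.1 by the same floor. Counting error is not included in these 2 ratios. Of 19 tested cell cycle genes 10 rose, against 0.637% of all genes tested, and the median was 3.11. Among marker-rich pericytes 3 of 11 rose, against 0.262% of all, with a median of 1.32. Genes such as Cenpf, with no count in RT and 1 in COLD, passed the filter on low counts only through CL. These medians therefore reflect that filter in part. In cold 0 of 19 rose by edgeR, with a median of 0.36, or 0.12 with genes unseen in 1 group set by the floor of 3 counts.

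The adipocyte genes Ucp1 and Cidea rose in CL, and Ucp1 also passed in C57 cold among marker-rich cells. Ucp1, the uncoupling protein of brown adipocytes, was at 1.34 and 2.75 CPM in RT, 65.8 and 50.5 CPM in COLD and 229 and 49.0 CPM in CL (78 counts against 2 in RT, a ratio of 74.5, exact interval 19.9 to 626). In C57 cold its adjusted p was 0.0946 over all pericytes and 0.0242 among marker-rich ones (edgeR), where COLD held 43 counts against 2 in RT, a ratio of 33.3 (exact interval 8.67 to 284). Cidea, a lipid droplet protein of brown fat, was at 4.03 and 2.75 CPM in RT and 131 and 35.9 CPM in CL (log2 change 4.48, adjusted p = 0.0432, edgeR), with an adjusted p of 0.0507 among marker-rich cells. Ucp1 counts were found in other classes of the same libraries as well, at 238 and 72.2 CPM in endothelial cells and 111 and 37.4 CPM in VSMCs of CL. The summed adipocyte list was at 5462 and 3251 CPM in RT, 7923 and 7468 CPM in COLD and 15197 and 9591 CPM in CL, and in endothelial cells it lay between 24909 and 64362 CPM. In endothelial cells Ucp1, Cidea and Car3 averaged only 78.6, 51.7 and 223 CPM, so that other list members made up most of that sum. The endothelial sum is therefore no measure of free adipocyte RNA. The part of free adipocyte RNA in these values was not tested.

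Adra2a, Apoc1, Ifitm1, Bst2 and Ankrd37 also rose in CL. Adra2a, an inhibitory adrenergic receptor gene, had 40 counts in CL and 1 in RT (ratio 76.4, exact interval 12.9 to 3092) and could not be tested among marker-rich cells. Like Cenpf, it passed the filter on low counts only through CL, so its call reflects that filter in part. Apoc1, an apolipoprotein gene, rose by 5.23 (adjusted p = 0.0117, edgeR) and the interferon-induced Ifitm1 by 3.28 (adjusted p = 0.0159, edgeR). Of the 24 interferon genes 4 rose in CL, against 0.637% of all genes tested, with a median of 0.84. Among marker-rich cells only Bst2 rose, while 0.262% of all genes did. Bst2 was at 338 and 317 CPM in CL (log2 change 2.58, SE 0.45, adjusted p = 0.0327). Ankrd37, a hypoxia-inducible gene, was at 16.1 and 22.0 CPM in RT and 54.5 and 137 CPM in CL (2.51, adjusted p = 0.0482, edgeR).

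Among the genes that fell in CL, the lymphangiogenic growth factor gene Vegfc was at 111 and 176 CPM in RT, 92.1 and 96.7 CPM in COLD and 18.2 and 22.9 CPM in CL (log2 change -2.59, SE 0.33, adjusted p = 0.0117). The neurotrophin gene Bdnf was at 76.5 and 121 CPM in RT, 95.4 and 156 CPM in COLD and 3.63 and 13.1 CPM in CL (-3.29, SE 0.54, adjusted p = 0.0297). The adhesion molecule gene Cadm1 was at 77.8 and 118 CPM in RT and 112 and 135 CPM in COLD, and had 2 counts in CL against 101 in RT (ratio 26.4, exact interval 7.13 to 221). The MAP kinase phosphatase gene Dusp5 was at 77.8 and 129 CPM in RT and 18.2 and 16.3 CPM in CL (-2.37, adjusted p = 0.0321, edgeR). All 4 also passed among marker-rich cells, but none of them passed when cells with high totals were left out, where no gene was called.

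**Figure D5:**
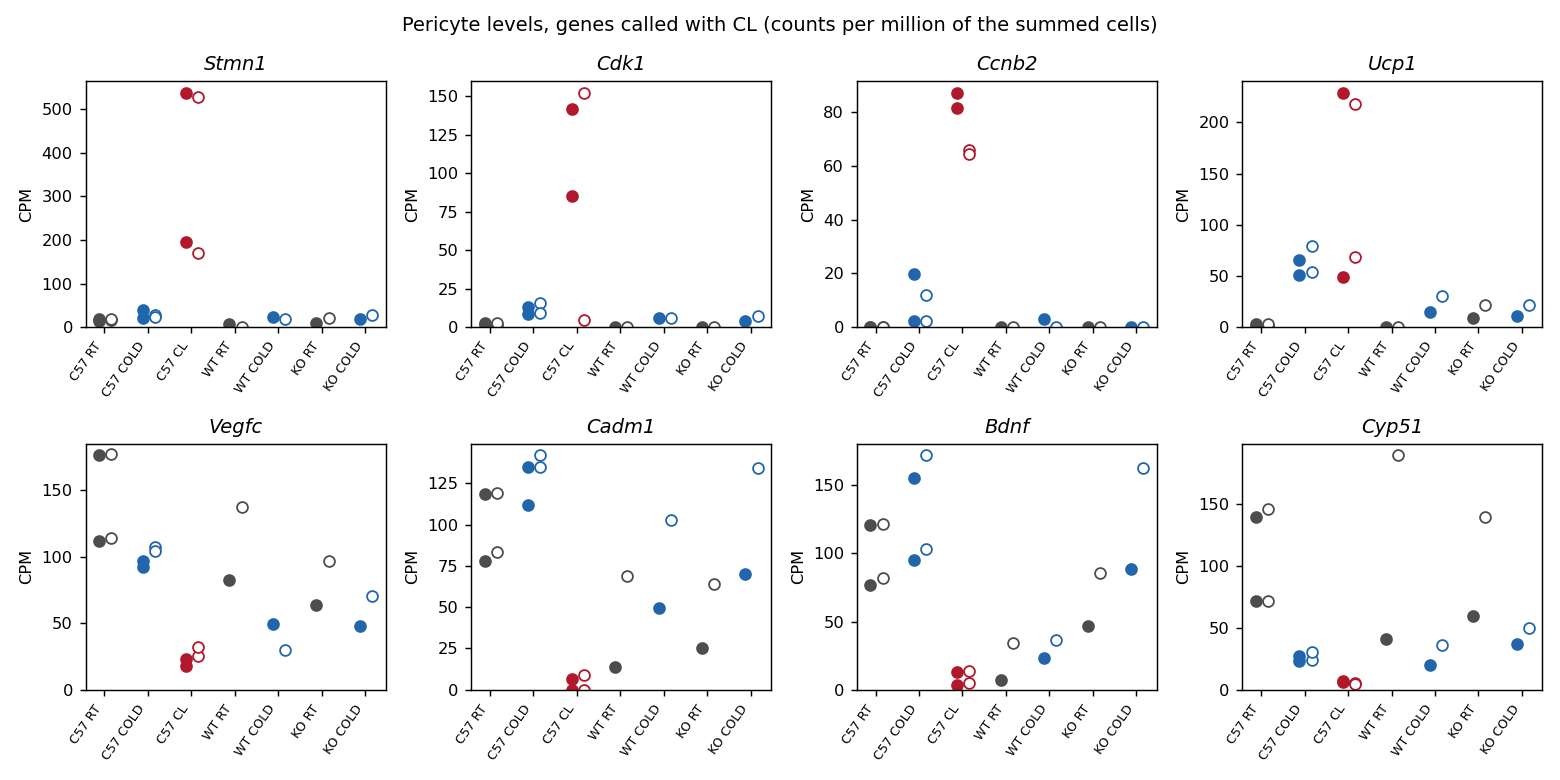
CPM of genes named for CL316,243, each on its own linear axis, by library (grey RT, blue COLD, red CL); filled symbols are all pericytes and open symbols marker-rich ones. Stmn1 lies at 538 and 196 CPM in CL against 14.8 and 19.3 CPM at RT, and Vegfc at 18.2 and 22.9 CPM in CL against 111 and 176 CPM at RT.

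The direct comparison of the treatments asked where cold and CL316,243 differed. It gave 9 of 6752 genes (0.133%), 3 higher in cold (0.0444%) and 6 higher in CL (0.0889%), and 4 of 6480 (0.0617%) among marker-rich pericytes, 3 higher in cold (0.0463%) and 1 higher in CL (0.0154%). The 3 genes higher in cold were Cadm1 (log2 difference 4.98, SE 0.59, adjusted p = 0.0222), Bdnf (3.77, SE 0.53, adjusted p = 0.0287) and Npr3. Npr3 had 150 counts in COLD and 2 in CL (ratio 55.9, exact interval 15.2 to 466). The 6 higher in CL were all cell cycle genes, among them Stmn1 (-3.71, SE 0.50, adjusted p = 0.025) and Cenpa (-2.57, adjusted p = 0.0222). Cadm1, Bdnf, Npr3 and Stmn1 made up the 4 that passed among marker-rich cells. Leaving out the first CL library left 0 calls and leaving out the second COLD library left 1, and 494 genes had an unadjusted p under 0.05 with edgeR; DESeq2 called 17. With the replicate experiment as a block 27 were called, all 9 among them.

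Whether the responses of pericytes differed from those of their neighbours was asked of sums of both classes, by the interaction of class and treatment with the library as a block. Against VSMCs, 2 of 8609 genes differed in their cold response (0.0232%), namely Igfbp3 and Prnp, whose response was higher in pericytes by 2.55 (SE 0.36, adjusted p = 0.00322) and had an adjusted p of 0.0748 among marker-rich cells. In CL 24 genes differed from VSMCs (0.279%), 17 with the higher response in pericytes (0.197%) and 7 with the lower (0.0813%). Stmn1 rose more in pericytes by 3.81 (adjusted p = 0.00149, edgeR), Ankrd37 by 3.02 (adjusted p = 0.00295, edgeR) and Kcne4 by 2.87 (adjusted p = 0.00863, edgeR). Hba-a1, Hba-a2, Hbb-bs, Hbb-bt and Alas2, genes of red cells, were among the 7 with the lower response; the erythroid list was at 5265 CPM in VSMCs of the first CL library and at 5481 CPM in pericytes of the first RT library. Without the first RT library 1 gene was called in each of these comparisons with VSMCs, and it was none of the 2 or 24; DESeq2 called 8 in CL.

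Against endothelial cells, 69 of 9403 genes differed in cold (0.734%), 36 with the higher response in pericytes (0.383%) and 33 with the lower (0.351%). In CL 63 differed (0.67%), 44 with the higher response (0.468%) and 19 with the lower (0.202%). In cold the response was higher in pericytes for Igfbp3, Npr3 (3.71, adjusted p = 1.93e-05, edgeR), Ednrb (3.04, adjusted p = 0.00116, edgeR) and Tagln (4.46, adjusted p = 0.00134, edgeR). It was lower for Fst (-3.05, adjusted p = 0.000285, edgeR) and for the chemokine gene Cxcl12 (-4.37, adjusted p = 0.00247, edgeR), which went from 662 and 1260 CPM to 1820 and 3720 CPM in endothelial cells. In CL the response was higher in pericytes for Stmn1 (3.69, adjusted p = 7.35e-05, edgeR) and Ucp1 (3.92, adjusted p = 0.00342, edgeR), and lower for Cthrc1 (-3.32, adjusted p = 0.000271, edgeR). For Ucp1 the C57 pericytes held 78 counts in CL and only 2 in RT, near the floor. In each CL library the Ucp1 level itself was lower in pericytes than in endothelial cells. DESeq2 called 13 genes in cold and 11 in CL, and leaving out any 1 of the RT and COLD libraries gave 5 to 26 in cold; in CL the count was 1 without the first RT library and 182 without the second CL library.

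The number of genes called between KO and WT mice depended on the fit. Adrb1 itself, the targeted gene, was at 75.5 CPM in WT RT, 95.5 CPM in WT COLD, 76.3 CPM in KO RT and 110.4 CPM in KO COLD, a log2 difference between KO and WT of 0.05 (SE 0.56, adjusted p = 1, edgeR). With 2 libraries per genotype over both temperatures, 1 of 7247 genes passed by edgeR (0.0138%) and 255 had an unadjusted p under 0.05; DESeq2 called 0. A fit of the Adrb1 line alone called 51 of 5465 genes. The 1 gene of the joint fit was Wfdc2, a secreted epithelial protein, at 6.87 and 60.8 CPM in WT and 229 and 419 CPM in KO (log2 difference 3.24, SE 0.39, adjusted p = 0.0477). It had no count in C57 pericytes, and among marker-rich cells it was at 34.4 and 36.2 CPM in WT and 0 and 14.1 CPM in KO, so that the difference lay in marker-poor cells. Among marker-rich cells 0 of 5853 genes passed by edgeR, with 186 at an unadjusted p under 0.05.

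Markers of other cell types moved with the libraries. The erythroid list was at 5481 CPM in the first C57 RT library, 707 CPM in the first COLD library and no more than 16.3 CPM elsewhere. The immune list was at 699 CPM in KO COLD, and at 28.3 CPM among its marker-rich cells. The ASC list ranged from 850 to 5906 CPM over the C57 libraries and was at 26465 CPM in WT RT, 9945 CPM in WT COLD, 19252 CPM in KO RT and 10014 CPM in KO COLD. Leaving out the marker-poor cells lowered the ASC list but did not remove its difference with temperature. Among marker-rich pericytes it was at 552 and 644 CPM in C57 RT, 1948 and 1818 CPM in C57 COLD, 553 and 1938 CPM in C57 CL, 241 CPM in WT RT, 1667 CPM in WT COLD, 525 CPM in KO RT and 820 CPM in KO COLD, so that every COLD library lay above every RT library. Its part in the results for marker-rich cells was not tested. Endothelial genes summed to between 173 and 930 CPM. The Lin+ and Lin- libraries of the second CL sample shared 1223 barcodes, against no more than 443 in the other pairs, and 16 pericytes carried a barcode of their own Lin+ library, 4 of them in that sample.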

How the data were processed

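Gene by cell matrices of 10 Lin- and 10 Lin+ libraries were used. The authors aligned and counted reads with Cell Ranger 3.0.1 on mm10 and deposited estimated counts, corrected for free RNA with SoupX using Fabp4 and Car3, so that these values need not be whole and adipocyte transcripts were partly removed. Here the counts of the pericytes were summed per Lin- library, rounded to whole numbers and tested with edgeR 4.0.16 (R 4.3.3; TMM, filterByExpr, quasi-likelihood test, Benjamini-Hochberg adjustment, threshold 0.05); the 11 genes of the rule and mitochondrial genes stayed in library sizes but were not tested. CPM are summed counts scaled to the total of the summed cells. Exact intervals of count ratios were taken on counts pooled over libraries and cover counting error only, not the spread between pools. Shares were compared by exact permutation over libraries. The 6 C57 libraries shared one fit; KO and WT were fitted with them and with temperature as a covariate. Doublets were not called. The study's methods tie a C57 replicate number to 1 experiment, so the numbers pair RT, COLD and CL libraries; deviations of same-numbered libraries correlated at 0.197 (RT and COLD), -0.013 (RT and CL) and 0.277 (COLD and CL) over 6752 genes. Pools of mice are the replicates, and replicate libraries differed by more than sampling noise (chi-square per degree of freedom 2.879 to 8.993). In simulated data, 4-fold changes were recovered for 95.0% (C57 cold), 94.0% (CL), 88.0% (cold against CL), 99.0% (both lines) and 82.0% (KO) of changed genes, and for 43.0% to 59.5% in the tests against other classes. The simulation gave every gene the same dispersion of 0.05 and changed only well-counted genes. The real libraries were not matched in these settings, so the recovery in them was not measured.

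Genes were named if they were among the 12 largest changes in each direction with an adjusted p under 0.05, groups not overlapping and at least 10 counts in every library of the higher group; called list members (up to 4 per list) and receptor and marker genes were added. Prnp, Isg15, Usp18, Plat, Lims2, Apoc1, Ifitm1, Prkg1 and Mrvi1 fall outside this rule and were named after their values had been seen. In the tests against other classes Iigp1, Cxcl12, Alas2 and the haemoglobin genes were also named outside this rule. The members and lists were chosen with earlier results of these data known. Alternatives were DESeq2 1.42.0, no TMM scaling, no filter on low counts, a marker sum of at least 5, totals of at least 1000, cells with totals over 2 times the median left out, a replicate block, each library left out, and, chosen after seeing the data, marker-rich cells, cells with no Myh11 or Lmod1 and cells with no barcode shared with Lin+. Lin+ libraries were used only to count shared barcodes and cells past the rule. Python 3.11.15 was used for counting. Some items are not reported here.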

Additional observations from a re-analysis of the deposited data

Results flagged for a closer look

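In the 4 RT libraries Hp had counts in the first C57 RT library alone, at 2.68 CPM. Kcne4 stood apart in the second C57 RT library, at 41.3 CPM, and Nr4a1 in the first C57 COLD library, at 164 CPM among the 4 COLD libraries. These were 3 of 84 groups of 4 looked at, and chance flags about 1 in 20 such groups.

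The response of pericytes differed by the interaction test from that of VSMCs for 2 genes in cold and 24 in CL, and from that of endothelial cells for 69 genes in cold and 63 in CL.

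Ptn changed by -2.69 on the log2 scale in C57 cold, whereas both pairs of the Adrb1 line moved the other way over all pericytes, by 2.62 in WT and 1.52 in KO. Among marker-rich cells these were -3.01 and -2.37. B430010I23Rik changed by -1.57 in C57, and by 0.03 in WT and 0.20 in KO. Prnp changed by 2.08 in C57, and by -0.61 in WT and -0.81 in KO. The difference between the lines was not tested.

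In the Lin+ libraries, which entered no comparison, 38 of 50204 cells passed the pericyte rule. They came from 9 of the 10 libraries, with at most 9 in one.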

How the results depend on the processing

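Depth and the number of pools limit these results: a pericyte held 935 to 2934 counts at the median, and groups had 2 pools in C57. Of 142 alternative counts of called genes, 41 lay within 1.5 times the count reported and 101 did not; the causes were not tested. No named gene changed direction in a fit of the comparison it was named for, but of the genes called in C57 cold Ptn, Prnp and B430010I23Rik ran the other way in both pairs of the Adrb1 line over all pericytes; Wfdc2 was too low to be tested in marker-rich pericytes, where it was lower in KO. Ifit1, Ifit3 and 1810011H11Rik were called in every alternative that tested them in C57 cold, 13 of 39 named genes were in the comparison over both lines (among them Hp, which could not be tested in marker-rich pericytes), and 0 of 32 in CL.

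In C57 cold (29 genes) the count was 60 without TMM scaling, 243 without the filter on low counts and 15 without cells of high total. In CL (56) it was 117, 423 and 0 in the same order, 23 in marker-rich pericytes, 18 without cells that held Myh11 or Lmod1 and 8 without barcodes shared with Lin+. For cold against CL (9) it was 17 with DESeq2, 24 without TMM scaling, 155 without the filter, 16 at a marker sum of at least 5, 1 without high totals, 4 in marker-rich pericytes, 4 without Myh11 or Lmod1 and 2 without shared barcodes. Over both lines (111) it was 217 with DESeq2, 519 without the filter, 56 without high totals, and 1094 in the Adrb1 line alone, or 459 in its marker-rich pericytes. For KO against WT (1) it was 0 with DESeq2, 4 without TMM scaling, 38 without the filter, 2 at a marker sum of at least 5, 51 in the Adrb1 line alone, and 0 without high totals, in marker-rich pericytes, without Myh11 or Lmod1 and without shared barcodes.

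The difference in response from VSMCs gave, in cold (2), 1 gene with sums thinned to equal depth, 51 without the filter and 4 in marker-rich pericytes, and in CL (24) 8 with DESeq2, 12 thinned, 65 without the filter and 13 in marker-rich pericytes. From endothelial cells it gave, in cold (69), 13 with DESeq2, 28 thinned and 153 without the filter, and in CL (63) 11, 36 and 191, with 21 in marker-rich pericytes.

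With 1 library left out, among all or marker-rich pericytes, the counts ran from 15 to 186 in C57 cold, 3 to 348 in CL, 0 to 19 for cold against CL, 57 to 267 over both lines and 0 to 18 for KO. They ran from 1 to 19 (cold) and 1 to 24 (CL) against VSMCs and from 5 to 26 and 1 to 182 against endothelial cells. The share difference ran from -2.71 to -1.20 points over both lines, -3.70 to -2.52 in C57 cold and -4.59 to -3.49 in CL.

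The ratio to endothelial cells and the cycling share had no stable sign. With totals of at least 1000 the ratio difference turned to 0.342 over both lines and 5.84 in CL. Without the second C57 RT library it turned to 8.04, to 4.39 in C57 cold and to 12.1 in CL, and without the first CL library to 28.0; the lowest values with a library left out were -9.35, -35.6 and -43.8. The cycling difference turned to 4.10 points without thinning, 4.07 with at least 2 counts and 0.626 without the second C57 RT library, with a lowest value of -1.07.

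With a replicate block the counts were 55 in cold, 140 in CL, 27 for cold against CL and 81 over both lines, and the cycling difference had an exact permutation p of 0.625. Besides Acta2, Tpm1 and Notch4, the named genes Nr4a2, Igsf10, Cyp51, Usp33 and Angptl4 lost their call over both lines, with adjusted p from 0.0525 to 0.0909, and the block ended no other named call.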
